A study of Mus musculus with 8 samples.

Results

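Glycolysis and the response to low oxygen were followed through 40 genes, listed by symbol. They comprise glucose transporters, the enzymes from hexokinase to pyruvate, the genes that decide the fate of pyruvate and lactate, the oxygen sensors and other known targets of the hypoxia response. Of the 40 genes, 34 had a probe with a known position, on 39 probes in all, against 21782 placed probes and 15089 named genes in the whole series. Gpi1, Pfkfb4, Eno1, Pdk1, Ankrd37 and Car9 were not analysed here. Hk1 had 4 probes, Hk2 and Ndrg1 had 2 each, and each gene is represented by its brightest probe. All 34 genes were brighter than the 95th percentile of the wells named empty.

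Glycolysis splits glucose into pyruvate and yields ATP without oxygen, and lactate dehydrogenase then turns pyruvate into lactate so that the pathway can go on. Many of its genes are also targets of hypoxia-inducible factor (HIF), a transcription factor whose alpha subunit is hydroxylated by the EGLN prolyl hydroxylases when oxygen is present and is then degraded. In T cells, cytokines and antigen receptor signals are known to raise glucose uptake and glycolysis during growth, and HIF target genes can respond to growth signals as well as to oxygen.

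The cells were CTL-EN, a T-cell line of mouse origin, carrying the human beta common chain of the GM-CSF receptor. The first population had the Ser585Gly mutant chain (S in the labels) and the other the wild type chain. Before the experiment both were kept 12 h without factor in RPMI with 0.5% CS. Cells at 0 h were taken at that point, and cells at 12 h were taken after 12 h in 50 ng/mL of the human cytokine. The 4 groups were therefore Ser585Gly at 12 h, Ser585Gly at 0 h, wild type at 12 h and wild type at 0 h. Total RNA was compared on 8 two-colour oligonucleotide arrays with 23040 spots each, as a square with 2 arrays on each edge. On replicate 1 of an edge the 12 h RNA or the Ser585Gly RNA carried Cy5, and on replicate 2 it carried Cy3. The sources used here do not say whether a population was a pool or a clone. Since no array held cells that spent those 12 h without GM-CSF, an effect of the cytokine and an effect of the added hours cannot be told apart. The labels name no separate cultures, so the p-values measure only the spread between hybridisations, which may be technical. The number of arrays limits the precision.

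Values are log2 ratios, given as 12 h over 0 h or as Ser585Gly over wild type, and an array sees only a ratio. Median foreground intensity lay between 631 and 946 in Cy5 and between 795 and 1105 in Cy3. Of 16 measured T cell markers, 14 were above the empty wells, among them Cd3e, Cd3g, Cd3d, Cd8a, Thy1 and Zap70, while Cd4 and Gzmb were not. All 9 myeloid, 5 B cell, 4 erythroid, 6 mast cell and 6 fibroblast markers also lay above the empty wells, so this limit did not separate cell types. For the fitted 12 h over 0 h ratios, the median of the T cell markers was 0.01 in Ser585Gly and −0.09 in wild type. Of the 16, 1 rose and 2 fell over time in Ser585Gly, where 5.77% of all probes rose and 4.72% fell. In wild type 2 rose and 2 fell, where 5.47% of all probes rose and 4.04% fell. Against wild type, 2 were lower in Ser585Gly at 12 h (0.799% of all probes) and 1 at 0 h (2%). Those that fell over time were Cd3e (−0.90 in Ser585Gly, −0.84 in wild type) and Cd3g (−0.72 and −0.71). Lat rose in both (0.49 in each) and Prf1 in wild type (0.55). Lower in Ser585Gly were Ptprc (−1.73 at 12 h, −1.59 at 0 h) and, at 12 h, Prf1 (−0.95). Among the markers of other cell types, the myeloid marker Ctsg was lower in Ser585Gly than in wild type, with fitted log2 ratios of −2.34 at 12 h and −2.07 at 0 h, Cd68 was higher by 0.60 at 12 h and 0.51 at 0 h, and 0 of the others passed for the mutation. Over time Ctsg rose by 0.70 in wild type, and the erythroid marker Hba-a1 fell by 0.49 in Ser585Gly and 0.45 in wild type. The part of these markers in the results was not tested. Gene names rest on a print order recovered from the spots. In the deposited order, from which it was derived, 32 of the 34 probes lay on the spot nearest to their deposited ratios, the exceptions being Slc2a3 and Egln1. That count checks the matching of ratios to spots and not the recovered names.

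A single array stood apart. On replicate 1 of Ser585Gly against wild type at 0 h, the median log2 ratio of the 48 print blocks ran from −1.0 to 0.40, a range of 1.40, against ranges of 0.40 to 0.71 on the other 7 arrays. On that array 11 blocks had medians below −0.3, and these blocks hold 18 of the 34 genes. Several of these genes read low on it alone, such as Bnip3 at −0.95 against 0.27 on replicate 2, and Pfkl at −1.09 against −0.09. Loess within each print block (print-tip loess) reduced the range to 0.14 on this array. Even so, Bnip3 then read −0.27 against 0.37 on replicate 2, and Slc16a3, outside the low blocks, −1.06 against 0.01. The part of the blocks in single genes was not tested. Results are therefore given for 5 limma fits. These are the planned fit with loess over the whole array and all 8 arrays, the same with print-tip loess, the planned fit without that array (7 arrays), the planned fit with each dye-swap pair averaged to 1 value, and print-tip loess with pairs averaged. The last was chosen after the block medians had been seen. Unless another fit is named, values come from the planned fit.

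**Figure D1:**
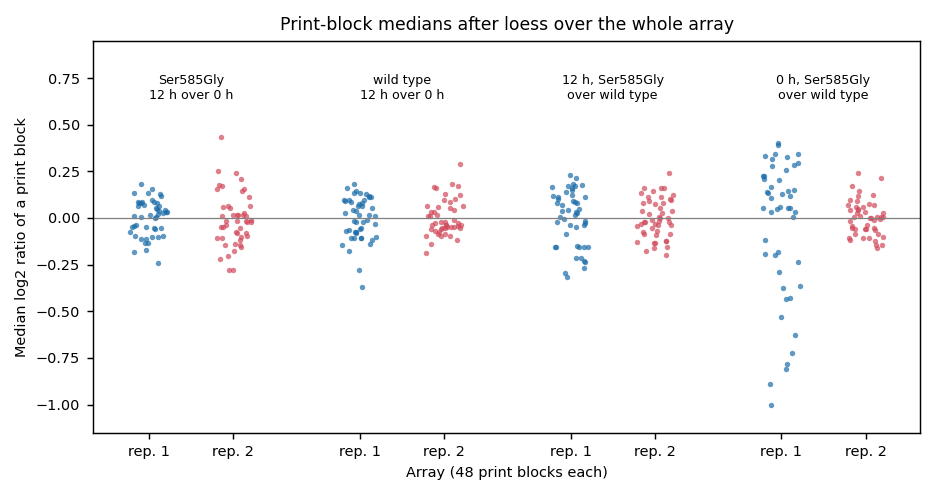
Median log2 ratio (vertical axis) of each of the 48 print blocks on each of the 8 arrays (horizontal axis), after loess over the whole array. Each point is 1 block. Blocks of replicate 1 of the 0 h Ser585Gly over wild type comparison spread from −1.0 to 0.40, while the ranges on the other arrays were 0.40 to 0.71.

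The first question was how these genes differed after 12 h with GM-CSF. Many glycolytic enzymes and hypoxia targets fell, in Ser585Gly and in wild type cells. In Ser585Gly cells 10 of the 34 genes fell and 1 rose at 12 h (limma, Benjamini-Hochberg over all probes, adjusted p under 0.05), where 4.72% of all probes fell and 5.77% rose. In wild type cells 12 of the 34 fell and 1 rose, where 4.04% of all probes fell and 5.47% rose. The median log2 ratio of the 34 genes was −0.27 in Ser585Gly and −0.25 in wild type, whereas the median of all probes was 0.01 in Ser585Gly and −0.01 in wild type. The 2 arrays of an edge had the same sign for most of the genes. In Ser585Gly 22 genes were below 0 and 6 above 0 on both arrays, and in wild type 20 were below and 7 above. Across the 34 genes the 2 dye orientations correlated at 0.813 in Ser585Gly and at 0.879 in wild type, given as a description since genes on 1 array share its normalisation. Over all probes the correlations were 0.510 in Ser585Gly and 0.515 in wild type.

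The counts moved with the fit, while decreases outnumbered increases in each of the 5. In Ser585Gly cells 18 genes fell and 2 rose with print-tip loess (9.07% and 10.6% of all probes), 14 fell and 1 rose with 7 arrays (7.43% and 8.36%), 9 fell and 0 rose with averaged pairs (2.58% and 3.67%), and 15 fell and 1 rose with both changes (5.53% and 6.98%). In wild type cells 12 fell and 3 rose with print-tip loess (8.66% and 10.1%), 12 fell and 1 rose with 7 arrays (7.01% and 8.2%), 7 fell and 0 rose with averaged pairs (2.08% and 2.93%), and 11 fell and 1 rose with both (4.95% and 6.33%). In the planned fit 8 genes fell in both populations, which 2.72% of all probes did. These were Tpi1, Pgk1, Pgam1, Ldha, Bnip3, Egln1, P4ha1 and Ddit4. In Ser585Gly 9 genes fell and 0 rose under all 5 fits (2.38% and 3.49% of all probes), and in wild type 7 fell and 0 rose (1.94% and 2.77%). Under all 5 fits the genes that fell in both populations were Bnip3, Pgk1, Tpi1, Pgam1 and Egln1, 5 of 34 where 1.22% of all probes did so. Leaving out either array of the Ser585Gly time edge from the planned fit left fewer genes past the threshold in Ser585Gly. In wild type, leaving out any array but the one that stood apart did so too. Shares of all probes are not given for these fits, so a loss particular to these genes cannot be read from them.

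**Figure D2:**
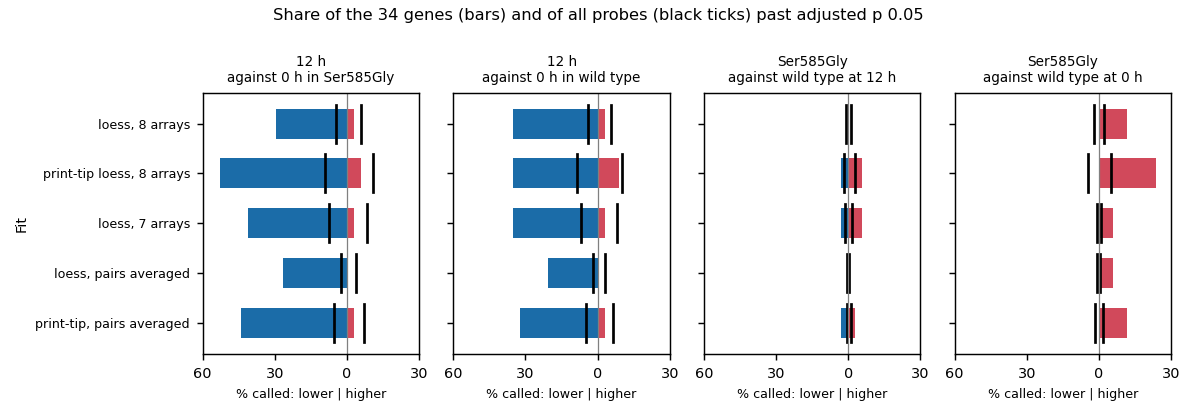
Share of the 34 genes past an adjusted p of 0.05 (bars, in percent, lower to the left and higher to the right) in 4 comparisons and 5 fits, with the share of all 21782 probes as black ticks. For 12 h over 0 h the bars for lower genes reached 29.4% in Ser585Gly and 35.3% in wild type in the planned fit with 8 arrays.

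**Figure D3:**
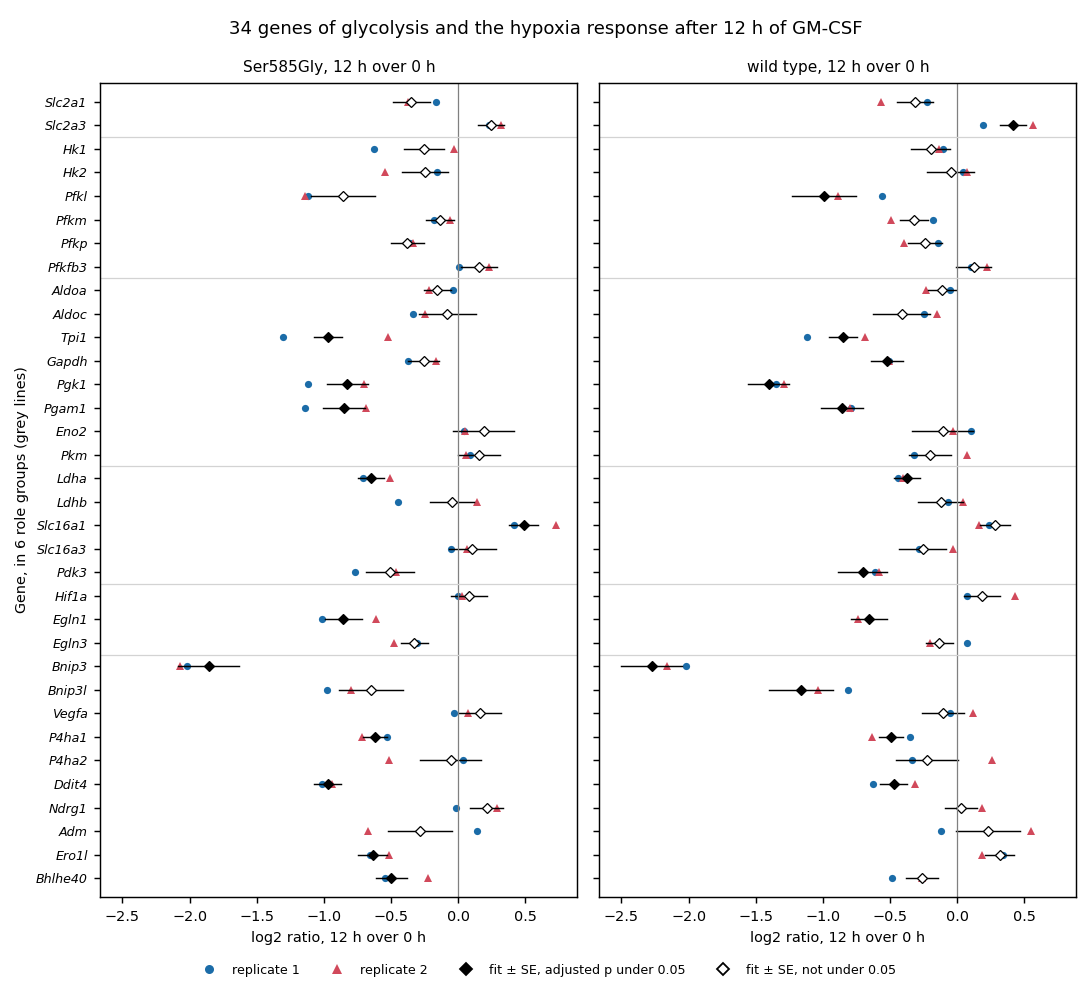
Log2 ratio of 12 h over 0 h (horizontal axis) for the 34 genes, in Ser585Gly (left) and wild type (right). Circles and triangles are the 2 arrays, diamonds are the fitted value with its SE over 8 arrays, filled where the adjusted p was under 0.05. Bnip3 lies farthest left in both panels, at −1.86 in Ser585Gly and −2.28 in wild type.

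Neither measured glucose transporter fell past the threshold. Slc2a3, the high-affinity transporter GLUT3, read 0.23 and 0.32 on the 2 Ser585Gly arrays and 0.19 and 0.56 on the 2 wild type arrays. All 4 arrays were above 0. The gene rose in wild type by 0.41 ± 0.10 (SE, 8 arrays; limma adjusted p = 0.0338) but missed the threshold in Ser585Gly, with 0.24 ± 0.10. Averaging the pairs lost the wild type call (adjusted p = 0.104), and print-tip loess gave 0.41 in Ser585Gly (adjusted p = 0.00776) and 0.54 in wild type (adjusted p = 0.00278). Slc2a1, the broadly expressed transporter GLUT1, was below 0 on all 4 arrays, between −0.16 and −0.56, and did not pass in either population.

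In the first steps, which phosphorylate glucose and commit it to glycolysis, the liver-type phosphofructokinase gene Pfkl stood out. It read −1.12 and −1.14 in Ser585Gly and −0.56 and −0.89 in wild type, below 0 on all 4 arrays. The planned fit gave −0.86 ± 0.24 in Ser585Gly (limma adjusted p = 0.0575) and −0.99 ± 0.24 in wild type (adjusted p = 0.0366), the second of which was lost with averaged pairs (adjusted p = 0.0575). Pfkl lies in a low block of the array that stood apart, and without that array it fell in both populations, by 1.04 in Ser585Gly (adjusted p = 0.0017) and by 0.82 in wild type (adjusted p = 0.00421). Pfkp, the platelet type, read −0.36 and −0.34 in Ser585Gly and −0.14 and −0.40 in wild type, and passed for time in Ser585Gly alone, in both fits with print-tip loess. Pfkm, the muscle type, was between −0.06 and −0.49 on the 4 arrays and passed in neither population in any of the 5 fits. The hexokinase genes Hk1 and Hk2 and the gene of the regulatory enzyme Pfkfb3 did not pass for time in the planned fit, and Pfkfb3 was at or above 0.01 on all 4 arrays. With print-tip loess Hk1 (−0.31, adjusted p = 0.0495) and Hk2 (−0.29, adjusted p = 0.0369) fell in Ser585Gly, and Pfkfb3 rose in wild type (0.26, adjusted p = 0.0339). Hk2 also fell in Ser585Gly without the array that stood apart (−0.36, adjusted p = 0.0365).

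In the steps from aldolase to pyruvate, where glycolysis yields ATP, 3 of 8 measured genes fell in Ser585Gly and 4 in wild type, with medians of −0.21 in Ser585Gly and −0.47 in wild type. Tpi1, triose phosphate isomerase, read −1.31 and −0.52 in Ser585Gly and −1.12 and −0.69 in wild type. It fell by 0.97 ± 0.10 in Ser585Gly (limma adjusted p = 0.00128) and by 0.85 ± 0.10 in wild type (adjusted p = 0.00211). In both populations replicate 1 showed the larger decrease.

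Pgk1, phosphoglycerate kinase, which makes the first ATP of the pathway, read −1.12 and −0.70 in Ser585Gly and −1.35 and −1.29 in wild type. It fell 1.77-fold in Ser585Gly (−0.83 ± 0.15, limma adjusted p = 0.0119) and 2.65-fold in wild type (−1.40 ± 0.15, adjusted p = 0.00135). The arrays of the 2 populations did not overlap, yet the difference between the responses, 0.58, had a limma adjusted p of 0.574 in the planned fit and 0.158 with print-tip loess. Pgam1, phosphoglycerate mutase, read −1.14 and −0.69 in Ser585Gly and −0.79 and −0.80 in wild type. Its fitted decrease was nearly the same in both, 0.85 in Ser585Gly (adjusted p = 0.0119) and 0.86 in wild type (adjusted p = 0.0125).

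Gapdh, glyceraldehyde-3-phosphate dehydrogenase, read −0.38 and −0.17 in Ser585Gly and −0.51 and −0.51 in wild type. It fell in wild type by 0.52 ± 0.12 (limma adjusted p = 0.0275, or 0.0568 with averaged pairs) and missed the threshold in Ser585Gly (−0.26 ± 0.12, adjusted p = 0.224). A further 152 control spots annotated to Gapdh, which took no part in the normalisation or the counts of probes, had median 12 h over 0 h ratios of −0.57 in Ser585Gly and −0.46 in wild type, with 93.4% of spots below 0 in Ser585Gly and 96.1% in wild type. Their ratio in Ser585Gly was thus lower than that of the gene's own probe. Print-tip loess gave the probe −0.46 in Ser585Gly (adjusted p = 0.0184) and −0.94 in wild type (adjusted p = 0.00115). With it the control spots had medians of −0.65 in Ser585Gly and −0.51 in wild type. The probe thus fell less than the control spots in Ser585Gly and more in wild type. Aldoa, Aldoc, Eno2 and Pkm, genes of aldolase, enolase and pyruvate kinase, did not pass in either population in any of the 5 fits, and their fitted values ran from −0.16 (Aldoa) to 0.19 (Eno2) in Ser585Gly and from −0.41 (Aldoc) to −0.11 (Eno2) in wild type.

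Among the genes that decide the fate of pyruvate and lactate, Ldha fell and the lactate transporter Slc16a1 did not. Ldha, the lactate dehydrogenase subunit that favours lactate production, read −0.71 and −0.51 in Ser585Gly and −0.44 and −0.40 in wild type. It fell by 0.65 ± 0.10 in Ser585Gly (limma adjusted p = 0.00489) and by 0.38 ± 0.10 in wild type (adjusted p = 0.0455). The wild type call was lost when pairs were averaged (adjusted p = 0.131). Slc16a1, the transporter MCT1, read 0.41 and 0.73 in Ser585Gly and 0.23 and 0.16 in wild type. It rose in Ser585Gly by 0.49 ± 0.11 (adjusted p = 0.0277), a call lost in both fits with averaged pairs (adjusted p = 0.0851 and 0.0529).

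Pdk3, a kinase that switches off pyruvate dehydrogenase, read −0.77 and −0.46 in Ser585Gly and −0.61 and −0.59 in wild type. Its fitted decrease of 0.70 ± 0.18 in wild type passed (limma adjusted p = 0.0456) and that of 0.51 ± 0.18 in Ser585Gly did not (adjusted p = 0.123). It too lies in a low block, and without that array it fell in both populations, by 0.64 in Ser585Gly and 0.58 in wild type. Ldhb and the transporter Slc16a3 passed in no fit of the 5.

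Of the oxygen sensing genes, the hydroxylase Egln1 fell and Hif1a did not pass. Egln1, the main prolyl hydroxylase that marks the HIF alpha subunit for degradation and itself a HIF target, read −1.02 and −0.61 in Ser585Gly and −0.66 and −0.74 in wild type. It fell by 0.86 ± 0.14 in Ser585Gly (limma adjusted p = 0.0068) and by 0.66 ± 0.14 in wild type (adjusted p = 0.0218). Hif1a, which encodes the alpha subunit, read 0.00 and 0.03 in Ser585Gly and 0.07 and 0.43 in wild type. Egln3, another hydroxylase, read −0.31 and −0.48 in Ser585Gly and 0.07 and −0.20 in wild type, and passed for time only in Ser585Gly with print-tip loess (−0.27, adjusted p = 0.0285).

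The largest decrease among the 34 genes was that of Bnip3, a mitochondrial outer membrane protein that recruits the autophagy machinery. On the 2 Ser585Gly arrays its probe had foreground intensities of 11508 and 8069 for the 12 h RNA, against 44367 and 35076 for the 0 h RNA. On the 2 wild type arrays it had 4394 and 5787 at 12 h, against 12620 and 24495 at 0 h. The normalised log2 ratios were −2.02 and −2.07 in Ser585Gly and −2.02 and −2.16 in wild type, and the 4 arrays differed little.

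Bnip3 fell 3.62-fold in Ser585Gly (−1.86 ± 0.23, limma adjusted p = 0.00235) and 4.84-fold in wild type (−2.28 ± 0.23, adjusted p = 0.00098). Without the array that stood apart the fitted values were −2.03 in Ser585Gly and −2.10 in wild type. Its relative Bnip3l, a mitophagy receptor too, read −0.98 and −0.80 in Ser585Gly and −0.81 and −1.03 in wild type. In the planned fit it passed in wild type (−1.16 ± 0.24, adjusted p = 0.0196) and not in Ser585Gly (−0.65 ± 0.24, adjusted p = 0.134). Without the array that stood apart it passed in both, with −0.82 in Ser585Gly (adjusted p = 0.00284) and −0.99 in wild type (adjusted p = 0.00176).

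P4ha1, the catalytic subunit of collagen prolyl 4-hydroxylase, read −0.53 and −0.72 in Ser585Gly and −0.35 and −0.63 in wild type. It fell by 0.62 ± 0.09 in Ser585Gly (limma adjusted p = 0.00448) and by 0.50 ± 0.09 in wild type (adjusted p = 0.0124). Ddit4, also called REDD1, an inhibitor of the growth kinase mTORC1, read −1.01 and −0.94 in Ser585Gly and −0.63 and −0.32 in wild type. It fell by 0.97 ± 0.10 in Ser585Gly (adjusted p = 0.00128) and by 0.47 ± 0.10 in wild type (adjusted p = 0.0244). With averaged pairs the wild type decreases of P4ha1 (adjusted p = 0.0648) and Ddit4 (adjusted p = 0.0711) missed the threshold.

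Bhlhe40, a transcriptional repressor of the basic helix-loop-helix family, read −0.55 and −0.23 in Ser585Gly and −0.48 and −0.26 in wild type. It passed in Ser585Gly (−0.50 ± 0.12, limma adjusted p = 0.0318), a call lost with averaged pairs (adjusted p = 0.0962), and did not pass in wild type. Vegfa, the vascular growth factor that is a textbook HIF target, read −0.03 and 0.07 in Ser585Gly and −0.05 and 0.12 in wild type. It passed in none of the 5 fits. P4ha2, Adm and the brightest Ndrg1 probe did not pass for time either, although the dimmer Ndrg1 probe rose in Ser585Gly (0.53 ± 0.13, adjusted p = 0.0381) against 0.21 on the brighter probe. Over the 17 genes that passed in no comparison, fitted 12 h over 0 h values ran from −0.38 (Pfkp) to 0.21 (Ndrg1) in Ser585Gly and from −0.41 (Aldoc) to 0.23 (Adm) in wild type.

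The promoters of the 34 genes were searched for the letters that HIF recognises. HIF binds at ACGTG or GCGTG, and the E-box CACGTG, bound by factors such as Myc and MAX, contains the first of these. These letters were searched on both strands in RefSeq windows of 300 bases (250 before and 50 after the gene's start, GRCm38.p6), using the first window listed for each gene. A window was at hand for 30 of the 34 genes, and Slc2a3, Bnip3l, Ndrg1 and Bhlhe40 are named only. The windows of 6 genes are printed, those that changed most among the 8 past the threshold in both populations (ranked by the smaller of the 2 fitted changes), so that Pfkl and Pdk3 are not among them. Each runs 5′ to 3′ on the strand of the gene, with ACGTG or GCGTG on either strand in capitals. They are Bnip3 at chr7:138909457-138909756 (minus strand), Tpi1 at chr6:124814109-124814408 (minus strand), Pgam1 at chr19:41911621-41911920 (plus strand), Pgk1 at chrX:106186850-106187149 (plus strand), Egln1 at chr8:124949205-124949504 (minus strand) and P4ha1 at chr10:59323046-59323345 (plus strand).
Bnip3: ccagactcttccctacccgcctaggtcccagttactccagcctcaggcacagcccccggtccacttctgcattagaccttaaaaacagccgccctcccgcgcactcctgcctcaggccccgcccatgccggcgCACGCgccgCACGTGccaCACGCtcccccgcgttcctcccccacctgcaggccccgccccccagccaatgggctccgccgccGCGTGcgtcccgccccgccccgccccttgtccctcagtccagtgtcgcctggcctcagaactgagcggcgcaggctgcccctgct
Tpi1: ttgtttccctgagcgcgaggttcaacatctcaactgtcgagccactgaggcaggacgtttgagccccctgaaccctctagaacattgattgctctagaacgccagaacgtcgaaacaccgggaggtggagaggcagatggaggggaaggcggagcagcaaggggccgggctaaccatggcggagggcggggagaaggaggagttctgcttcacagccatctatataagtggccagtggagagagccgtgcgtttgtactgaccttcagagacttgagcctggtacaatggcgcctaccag
Pgam1: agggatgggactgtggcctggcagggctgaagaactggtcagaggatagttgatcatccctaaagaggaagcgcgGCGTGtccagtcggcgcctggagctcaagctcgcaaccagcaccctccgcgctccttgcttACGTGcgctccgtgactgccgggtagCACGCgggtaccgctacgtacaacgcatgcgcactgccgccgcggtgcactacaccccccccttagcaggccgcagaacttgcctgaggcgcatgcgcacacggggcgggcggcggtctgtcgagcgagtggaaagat
Pgk1: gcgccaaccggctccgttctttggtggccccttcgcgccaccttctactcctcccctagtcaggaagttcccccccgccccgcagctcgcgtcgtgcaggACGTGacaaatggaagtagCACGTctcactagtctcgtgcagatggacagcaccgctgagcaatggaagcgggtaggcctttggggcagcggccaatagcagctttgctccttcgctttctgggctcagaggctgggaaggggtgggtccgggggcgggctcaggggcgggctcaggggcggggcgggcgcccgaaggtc
Egln1: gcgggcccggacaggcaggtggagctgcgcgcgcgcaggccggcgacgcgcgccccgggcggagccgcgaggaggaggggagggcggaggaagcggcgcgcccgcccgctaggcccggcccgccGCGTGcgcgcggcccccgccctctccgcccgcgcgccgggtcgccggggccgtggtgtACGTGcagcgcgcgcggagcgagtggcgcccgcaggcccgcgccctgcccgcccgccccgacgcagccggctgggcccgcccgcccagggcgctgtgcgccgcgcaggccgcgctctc
P4ha1: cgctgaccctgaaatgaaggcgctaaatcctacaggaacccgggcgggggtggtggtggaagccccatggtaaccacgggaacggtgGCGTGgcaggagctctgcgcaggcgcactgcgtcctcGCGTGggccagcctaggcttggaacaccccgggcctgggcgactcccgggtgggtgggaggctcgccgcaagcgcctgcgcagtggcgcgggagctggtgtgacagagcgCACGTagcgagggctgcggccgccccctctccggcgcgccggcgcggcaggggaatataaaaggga

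Bnip3 had 5 such matches over both strands, with a CACGTG E-box among them, which matches on each strand, while Pgam1 and P4ha1 had 3 each and Pgk1 and Egln1 had 2 each. Tpi1, which fell about as much as Pgam1, had 0. At least 1 core stood in 24 of the 30 windows, against 43.8% of 27025 windows over all genes. ACGTG stood in 66.7% of the 30 windows against 19.7% of all, GCGTG in 56.7% against 32.5%, and CACGTG in 16.7% against 7.24%. The windows of the 30 genes also had a median GC content of 65.2%, against 52.7% over all genes, and its part in these shares was not tested. Among the windows without a core were those of Aldoa, Eno2, Hk1, Pkm and Vegfa. Ldha had the most matches with 7, and fell less than Tpi1. A relation between the number of matches and the size of a decrease was not tested. Several genes were included because they are known HIF targets, so the shares describe the list. A match is not a bound site, and its absence says only that these letters are not in this window.

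The second question was how Ser585Gly cells differed from wild type cells at the same time. After deprivation and before GM-CSF, a few hypoxia targets were higher in the mutant. At 0 h 4 of the 34 genes were higher in Ser585Gly and 0 were lower (limma, adjusted p under 0.05), where 2.07% of all probes were higher and 2% were lower. These 4 were Ero1l, Ddit4, Ldha and Egln3. At 12 h 0 of the 34 genes passed, where 0.914% of all probes were higher and 0.799% lower. The median of the 34 genes was 0.10 at 12 h and 0.02 at 0 h, but their order turned with the fit. It was 0.12 at 12 h and 0.17 at 0 h with print-tip loess, and 0.12 at 12 h and 0.20 at 0 h without the array that stood apart.

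**Figure D4:**
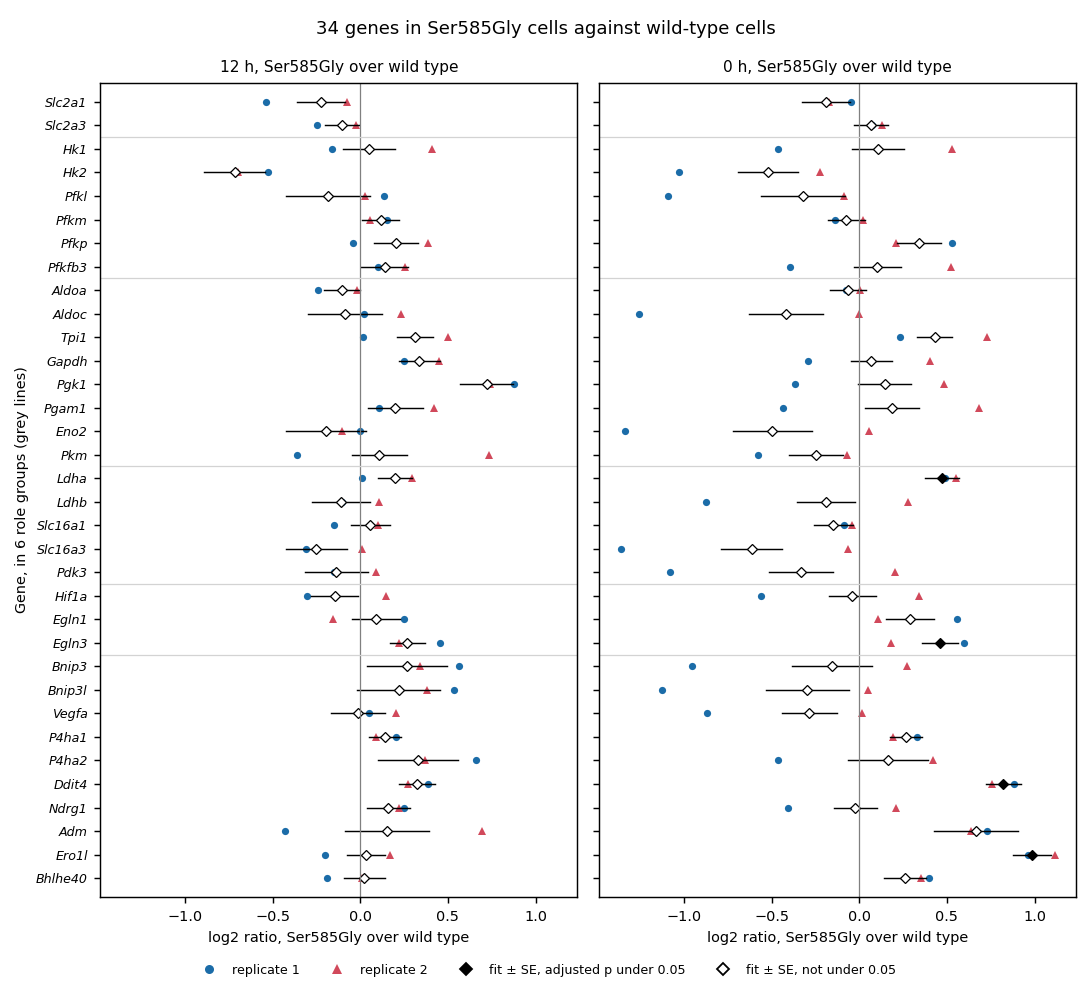
Log2 ratio of Ser585Gly over wild type (horizontal axis) for the 34 genes at 12 h (left) and at 0 h (right). Circles and triangles are the 2 arrays, diamonds are the fitted value with its SE over 8 arrays, filled where the adjusted p was under 0.05. At 0 h replicate 1 shows many genes near −1, such as Pfkl at −1.09 against −0.09 on replicate 2, in the print blocks with low medians.

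Ero1l, now named Ero1a, encodes an oxidase of the endoplasmic reticulum that keeps protein disulfide isomerase able to form disulfide bonds. At 0 h it had foreground intensities of 5889 and 4392 in Ser585Gly RNA, against 2753 and 2043 in wild type RNA, and log2 ratios of 0.96 and 1.11. It was 1.98-fold higher in Ser585Gly (0.99 ± 0.11, limma adjusted p = 0.0037). At 12 h the ratios were −0.20 and 0.17, on either side of 0.

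Over time Ero1l had opposite signs in the populations. It read −0.65 and −0.52 in Ser585Gly and 0.34 and 0.18 in wild type. It fell in Ser585Gly by 0.64 ± 0.11 (limma adjusted p = 0.00844), and the wild type value of 0.31 ± 0.11 did not pass (adjusted p = 0.117). With print-tip loess the wild type value was 0.36 and passed (adjusted p = 0.0103). The difference between the responses was −0.95 ± 0.13 (interaction adjusted p = 0.0696). With print-tip loess it was −0.98 and passed (adjusted p = 0.00817), while the adjusted p was 0.13 with 7 arrays, 0.464 with averaged pairs and 0.188 with both changes. In the planned fit 0 of the 34 genes passed for this difference, where 0.0551% of all probes did, and with print-tip loess Ero1l alone passed, where 0.22% of all probes did.

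Ddit4 read 0.88 and 0.76 at 0 h and was 1.77-fold higher in Ser585Gly (0.82 ± 0.10, limma adjusted p = 0.00647). At 12 h it read 0.39 and 0.27, above 0 on both arrays, but did not pass (0.33 ± 0.10, adjusted p = 0.21). Ero1l and Ddit4 were higher at 0 h under all 5 fits, 2 of 34 where 0.404% of all probes were. Ldha read 0.49 and 0.55 at 0 h, a difference of 0.47 ± 0.10 (adjusted p = 0.036). Egln3 read 0.60 and 0.18, a difference of 0.46 ± 0.10 (adjusted p = 0.0446). Both calls were lost with averaged pairs, with adjusted p of 0.0987 for Ldha and 0.11 for Egln3, and with 7 arrays, with 0.125 for each.

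The 0 h comparison is the edge with the array that stood apart, and its count moved with the fit. Its arrays differed in sign for 16 of the 34 genes, and their correlation over the genes was 0.534, against 0.382 at 12 h, where 12 genes differed in sign. Over all probes the order was the reverse, with 0.124 at 0 h and 0.218 at 12 h. With print-tip loess 8 genes were higher and 0 lower (4.99% and 4.38% of all probes), the additions being Tpi1, Pfkp, Pfkfb3 and Ndrg1. With 7 arrays 2 were higher and 0 lower (0.725% and 0.767%), with averaged pairs 2 and 0 (0.528% and 0.808%), and with both changes 4 and 0 (1.7% and 1.63%).

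At 12 h, Pgk1 and Hk2 came closest to the threshold, and both passed in other fits. Pgk1 read 0.88 and 0.74, with 0.72 ± 0.15 (limma adjusted p = 0.0624), and was higher in Ser585Gly with print-tip loess (0.74, adjusted p = 0.00426) and with 7 arrays (0.81, adjusted p = 0.00905), but not with averaged pairs (adjusted p = 0.0935). Hk2, a hexokinase that is induced in growing cells, read −0.52 and −0.70, with −0.72 ± 0.17 (adjusted p = 0.101). It was lower in Ser585Gly with print-tip loess (−0.63, adjusted p = 0.00477) and with 7 arrays (−0.60, adjusted p = 0.0182), and its second probe gave −0.46 (adjusted p = 0.4). None of the 34 genes passed at 12 h in all 5 fits, where 0.331% of all probes were higher and 0.331% lower. In all, 2 genes were higher and 1 lower at 12 h with print-tip loess (2.68% and 1.89% of all probes), 2 and 1 with 7 arrays (1.5% and 1.37%), 0 and 0 with averaged pairs (0.367% and 0.344%), and 1 and 1 with both changes (0.909% and 0.735%).

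At 0 h Gapdh read differently on its own probe and on the control spots in the planned fit, while at 12 h they were close. The probe read 0.25 and 0.45 at 12 h and −0.29 and 0.41 at 0 h. Its fitted values were 0.34 at 12 h and 0.07 at 0 h. The 152 control spots had fitted medians of 0.38 at 12 h and 0.47 at 0 h, with 4.61% and 5.26% of spots below 0. The probe lies in a low block of the array that stood apart, and without that array its fitted values were 0.39 at 12 h and 0.24 at 0 h, neither past the threshold. With print-tip loess it was 0.49 at 12 h and passed (adjusted p = 0.0416), the second gene higher there beside Pgk1, and with print-tip loess and averaged pairs it did not (adjusted p = 0.075).

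**Figure D5:**
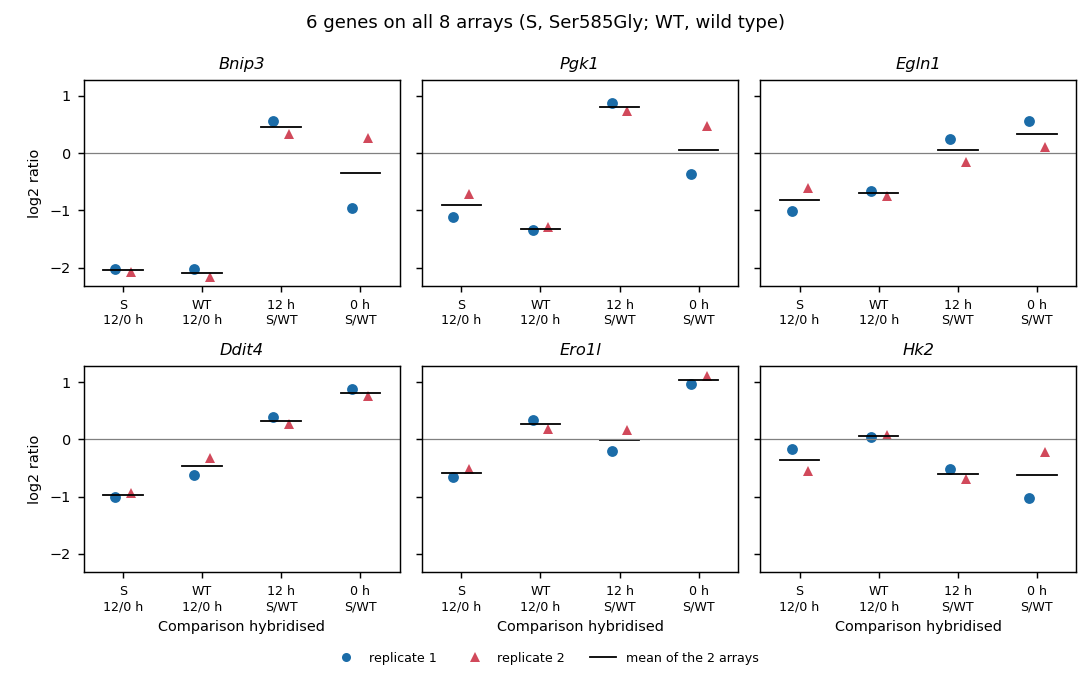
Log2 ratios (vertical axis) of 6 genes on all 8 arrays, in the 4 comparisons hybridised (horizontal axis), with circles and triangles for the 2 arrays and a line at their mean. Bnip3 lies between −2.02 and −2.16 on the 4 time arrays, and Ero1l is below 0 over time in Ser585Gly, above 0 over time in wild type, and near 1 for the mutant at 0 h.

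Other genes of the pathway were taken from lists by function. Their counts over time stand beside all probes, of which 5.77% rose and 4.72% fell in Ser585Gly and 5.47% rose and 4.04% fell in wild type. Of 22 other isozymes of glycolysis and fructose metabolism, 3 rose and 4 fell in Ser585Gly and 3 rose and 1 fell in wild type, with medians of 0.05 in Ser585Gly and −0.07 in wild type. Adpgk, an ADP-dependent glucokinase, was among those that rose, by 0.95 ± 0.10 in Ser585Gly (limma adjusted p = 0.00121) and 0.99 ± 0.10 in wild type (adjusted p = 0.000952). Of 8 pentose phosphate genes 3 rose and 0 fell in Ser585Gly and 1 rose and 1 fell in wild type. Of 10 genes of pyruvate entry into mitochondria, 0 rose in either population and Pdk2 alone fell, in Ser585Gly.

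Glycogen genes and further hypoxia targets are given beside the shares of all probes, of which 4.72% fell and 5.77% rose in Ser585Gly and 4.04% fell and 5.47% rose in wild type. Of 8 glycogen genes 2 fell in Ser585Gly and 3 in wild type, and 0 rose. Gbe1, the glycogen branching enzyme, fell by 1.63 ± 0.11 in Ser585Gly (limma adjusted p = 0.000259) and by 0.94 ± 0.11 in wild type (adjusted p = 0.00225), and was higher in Ser585Gly at 0 h (0.72 ± 0.11, adjusted p = 0.0159). Of 52 further hypoxia targets 13 fell and 3 rose in Ser585Gly and 10 fell and 5 rose in wild type, with medians of −0.04 in Ser585Gly and −0.08 in wild type. Kdm4b, a histone demethylase, fell by 1.75 in Ser585Gly and 1.36 in wild type, and Plod1, a collagen lysyl hydroxylase, by 1.44 in Ser585Gly and 1.36 in wild type. At 0 h 6 of the 52 were higher in Ser585Gly and 2 lower, where 2.07% of all probes were higher and 2% lower. Among the higher was P4hb, the protein disulfide isomerase that works with Ero1l and is the partner subunit of P4ha1, at 0.80 ± 0.10 (limma adjusted p = 0.00636).

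In the HIF machinery itself 3 of 17 genes rose and 1 fell in each population, beside the same shares of all probes over time. The medians were 0.07 in Ser585Gly and 0.03 in wild type. Hif1an, the asparaginyl hydroxylase that blocks HIF activity, rose by 1.04 ± 0.10 in Ser585Gly (limma adjusted p = 0.000955) and by 1.02 ± 0.10 in wild type (adjusted p = 0.00101). Arnt2, a partner subunit of HIF alpha, rose by 1.61 in Ser585Gly and 1.71 in wild type, and was higher in Ser585Gly by 1.08 at 12 h and by 1.18 at 0 h. Cited2, which competes with HIF for the coactivators CBP and p300, fell by 0.65 in Ser585Gly and 0.66 in wild type. Hif1an, Arnt2, Cited2 and the elongin gene Eloc passed for time in both populations under all 5 fits.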

How the data were processed

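The 8 arrays were spotted oligonucleotide arrays read in Cy5 and Cy3. The deposited scanner files hold foreground and local background intensities per spot, with no correction named per the file headers. The authors also deposited a table of log2 ratios (Cy5 over Cy3), for which the submitters' processing notes name limma without version or steps. It was used as an alternative and to place probes.

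Probes were first matched to scanner spots in the deposited order. There 94.1% of 1012 coded control spots and 90.3% of placed probes lay on the spot nearest to their deposited ratio. The array correlations with the deposited ratios were 0.948 to 0.996. These values check the matching and not the print order of names, which was recovered in a second step. In the recovered order wells named empty had a median brightness percentile of 1.33, against 47.2 in the deposited order. For 70 ribosomal protein probes it was 99.1 against 49.0. Over 1021 pairs of probes of the same gene, fitted 12 h over 0 h ratios in Ser585Gly correlated at 0.44 in this order and at −0.07 in the deposited order. Names were updated by gene ID or accession, which left 16641 probes with 1 symbol, 136 with several and 5005 with none.

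Intensities were corrected with normexp (offset 50), normalised by loess (span 0.3, control spots at weight 0), and turned to 12 h over 0 h or Ser585Gly over wild type. With limma 3.58.1 in R 4.3.3, 1 model over the 8 arrays held the mutation, the time, the interaction of both and a dye effect (4 residual degrees of freedom, 4.35 prior). It places all 4 edges on shared group values, so a fitted ratio can differ from its edge's own arrays. The Benjamini-Hochberg adjustment ran over 21782 probes, and every adjusted p in the text comes from limma. Averaged pairs leave 1 residual degree of freedom (5.28 prior). The limma step was tested on simulated data. The members and gene lists were chosen with earlier results of these data known. Genes past the threshold in at least 1 of 5 contrasts are given by array and the rest by range. Replicate numbers follow accession order and name only the dye orientation.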

Additional observations from a re-analysis of the deposited data

Results flagged for a closer look

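Ero1l and Hk2 were the genes, among the 34, whose 12 h over 0 h ratio had opposite signs in the populations on every array. The share of all probes with such signs is not given, so this only describes these genes. Ero1l was below 0 on both Ser585Gly arrays and above 0 on both wild type arrays, and the difference between the responses was −0.95 (limma interaction adjusted p = 0.0696). Hk2 read −0.16 and −0.54 in Ser585Gly and 0.04 and 0.07 in wild type. Its difference was −0.20 (limma interaction adjusted p = 0.82), with the array that stood apart in the fit, and −0.43 without it (adjusted p = 0.4).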

How the results depend on the processing

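Arrays of different edges were not paired by replicate number, which follows accession order and marks only the dye orientation. The dye-swap pairs within an edge were averaged in the fits so named. In the planned fit 11 genes passed for time in Ser585Gly, 13 for time in wild type, 0 for the mutation at 12 h, 4 at 0 h and 0 for the interaction. For time in Ser585Gly the count was 20 with print-tip loess, 19 with the deposited ratios, and 2 to 15 when an array was left out. For time in wild type it was 7 with averaged pairs, 8 with median centring, and 3 to 13 without an array. For the mutation at 12 h it was 10 with the deposited ratios, 3 with print-tip loess, 2 each with arrays scaled, with edges as a random block and with print-tip averaged pairs, 1 each with no background correction and with subtraction, and 0 to 3 without an array. At 0 h it was 10 with the random block, 8 each with print-tip loess and the deposited ratios, 2 each with averaged pairs, median centring and no dye term, and 0 to 2 without an array (0 without its replicate 2). For the interaction it was 2 with the deposited ratios and 1 each with print-tip loess, subtraction, no background correction and the random block. A lone array of an edge is assumed to vary like the others. Shares of all probes are given above for the 5 fits only. The counts under the other settings therefore describe how calls moved with the processing, and not these genes against all probes.

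With names in the deposited order, which puts each name on another spot, 5 genes passed in Ser585Gly over time, 3 in wild type, 1 at 12 h and 2 at 0 h. Shares of all probes are not given for that order. Ratios with the opposite sign were then, over time in Ser585Gly, Pgk1 0.068, Pgam1 0.12, Ldha 0.13, Slc16a1 −0.13, Bnip3 0.17, P4ha1 0.11 and Ddit4 0.17. Over time in wild type they were Slc2a3 −0.48, Pfkl 0.33, Tpi1 0.16, Pgk1 0.14, Pgam1 0.23, Ldha 0.13, Bnip3 0.0089, Egln1 0.013, P4ha1 0.14 and Ddit4 0.21. At 0 h they were Ldha −0.61 and Ero1l −0.56. In the other 22 settings 0 of the 28 single-gene calls changed sign, 0 were lost with print-tip loess, 10 with averaged pairs, and 2 to 19 without an array, the most without replicate 1 of the Ser585Gly time edge.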
